A study of Sus scrofa with 9 samples.

Results

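Hyaluronan matrix genes were followed here in 9 porcine hearts donated after circulatory death: the hyaluronan synthases HAS1, HAS2 and HAS3, the matrix organizers PTX3 and TNFAIP6, the receptors CD44 and HMMR, the hyaluronidases HYAL1 and HYAL2, and the proteoglycan VCAN. The 10 genes were looked up in the deposited expression table of 25149 genes. HAS1 and PTX3 were selected on their measured levels in these hearts, as genes with large differences between hearts preserved by HOPE for 2 h without NRP and hearts with NRP and SCS for 2 h, and the others were added around them as genes of the same matrix. For that reason the levels of HAS1 and PTX3 are given as a description with no test, and no test is given for any of the 10 genes in that comparison. Of the 10, 8 were found by symbol and HAS2 was found by its gene identifier, which the table pairs with the symbol SHAS2. HAS3 was not analysed here.

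Hyaluronan is a long, unbranched sugar chain that synthases in the cell membrane extrude directly into the extracellular space. There it binds water and is organized by proteins: TNFAIP6 transfers heavy chains of inter-alpha-inhibitor onto the chain, the long pentraxin PTX3 crosslinks those heavy chains, and the proteoglycan versican binds along it. Cells sense the matrix through receptors such as CD44 and clear it with hyaluronidases, and in injured heart muscle newly made hyaluronan is associated with edema, leukocyte adhesion and fibroblast activation.

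Female Yorkshire pigs aged 4 to 6 months underwent 15 min of warm ischemia after simulated circulatory death, and all hearts were reanimated for 2 h by normothermic machine perfusion (NMP) before an apex biopsy was taken for bulk RNA sequencing. The NRP + SCS 2 h group (3 pigs) received normothermic regional perfusion (NRP) for 60 min, a restored circulation of warm oxygenated blood inside the donor, followed by 2 h of static cold storage (SCS) at 4 °C. The NRP + HOPE 24 h group (3 pigs) received the same 60 min of NRP followed by 24 h of hypothermic oxygenated perfusion (HOPE) at 8 °C, and the No NRP + HOPE 2 h group (3 pigs) was procured directly, without NRP, and perfused for 2 h at 8 °C. NRP, the storage method and its temperature therefore changed together when No NRP + HOPE 2 h is compared with NRP + SCS 2 h, whereas method, duration and temperature changed together between the NRP groups, and NRP and duration between the HOPE groups. These factors cannot be told apart, and there was no heart without circulatory death or without NMP.

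Values were TPM, a share of all transcripts in a library that is scaled for transcript length, so that levels of different genes can be set side by side within a heart. The sequencing depth behind them is unknown, and no counting error can be attached to a value. The biopsies are labelled cardiomyocytes, and cardiomyocyte transcripts were abundant, with a summed level of 22613 to 43153 TPM over 5 markers. The same hearts also held 669 to 1150 TPM of fibroblast markers, 160 to 375 TPM of endothelial markers and 54.9 to 208 TPM of macrophage markers, so the levels below are those of whole tissue. In such tissue, fewer cells of a type and less RNA per cell cannot be told apart. The 13 mitochondrially encoded genes took 38.2% of the total in pig 30 of the NRP + HOPE 24 h group and up to 55.3%, in pig 27 of the same group.

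Over all 9 hearts the genes fell into levels that differed widely. PTX3 (mean 66.7 ± 47.5 TPM, SD, n = 9), HYAL2 (51.4 ± 18.7), HAS1 (50.5 ± 44.0) and CD44 (41.5 ± 18.4) were abundant, with pooled spreads that include the differences between groups. Their order depended on the group. In NRP + SCS 2 h, HAS1 (9.88 to 16.4 TPM) lay below PTX3, HYAL2 and CD44, which overlapped. In NRP + HOPE 24 h, PTX3 lay above HAS1 and the other pairs of these 4 genes overlapped. In No NRP + HOPE 2 h, PTX3 (10.2 to 22.9 TPM) lay below HYAL2 (41.8 to 73.6 TPM) and HAS1. HAS2 (4.09 ± 2.75 TPM), VCAN (2.63 ± 0.422), HYAL1 (1.82 ± 1.04) and HMMR (0.846 ± 0.603) were low, with pooled spreads that ran into each other. TNFAIP6 was listed at 0 in 8 hearts and at 0.119 TPM in pig 27. HAS1 spanned 14.7-fold from its lowest to its highest heart and PTX3 12.2-fold, against 1.63-fold for VCAN, which varied least.

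**Figure D1:**
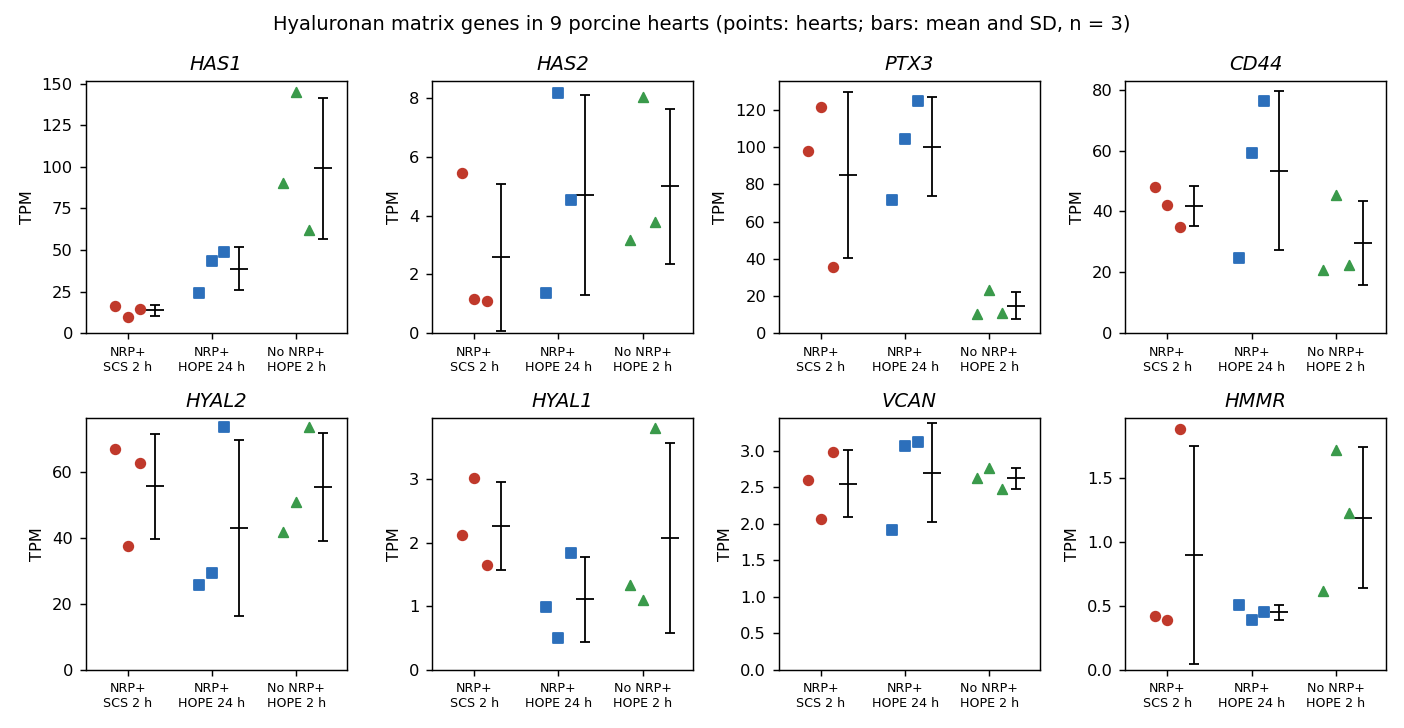
Levels of 8 hyaluronan matrix genes in TPM (vertical axes, linear from 0, scaled separately for each gene) in the 3 groups; points are hearts and the black bars give the mean and SD of 3 hearts. HAS1 steps up from NRP + SCS 2 h (9.88 to 16.4 TPM) through NRP + HOPE 24 h (24.1 to 49.0) to No NRP + HOPE 2 h (62.0 to 145), PTX3 is lowest in No NRP + HOPE 2 h (10.2 to 22.9), and the other genes overlap between most groups.

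Among the synthases, HAS1 (ENSSSCG00000003239) carried the pattern. Its level was 16.4, 9.88 and 14.6 TPM in pigs 24, 25 and 29 of the NRP + SCS 2 h group. It was 24.1, 43.5 and 49.0 TPM in pigs 27, 28 and 30 of the NRP + HOPE 24 h group, and 90.3, 145 and 62.0 TPM in pigs 31, 33 and 34 of the No NRP + HOPE 2 h group. The 3 groups did not overlap: every heart stored by HOPE lay above every heart stored by SCS, and within HOPE every heart without NRP lay above every heart with it. Of 11782 genes tested, 41 (0.348%) had all 3 groups apart in every pair, and HAS1 was the only gene (0.00849%) with NRP + SCS 2 h lowest and No NRP + HOPE 2 h highest. Because the outer groups of that order are the ones for which HAS1 was picked, this count is a description.

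Mean HAS1 was 7.29-fold higher in No NRP + HOPE 2 h than in NRP + SCS 2 h, a log2 fold change on the log2(TPM + 1) scale of 2.72 ± 0.37 (SE), and 2 of the 11782 genes tested had a larger one. NRP + HOPE 24 h exceeded NRP + SCS 2 h 2.86-fold in mean level, with a log2 fold change of 1.42 ± 0.37. NRP + HOPE 24 h was in turn lower than No NRP + HOPE 2 h, by a log2 fold change of -1.30 ± 0.37. Each of the comparisons with NRP + HOPE 24 h shares 3 hearts with the comparison that picked the gene, so these values describe it and are no support for the pattern. In the background, the groups failed to overlap for 9.82% of genes between the NRP groups, 14.7% between the groups for which HAS1 was picked, and 7.48% between the HOPE groups.

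HAS1 also separated the groups when the libraries were scaled differently. After removal of mitochondrially encoded transcripts and rescaling of the remainder, its level ran from 19.6 to 31.8 TPM in NRP + SCS 2 h, from 53.9 to 95.9 in NRP + HOPE 24 h and from 112 to 285 in No NRP + HOPE 2 h. With median-of-ratios scaling between hearts the ranges were 9.29 to 15.1, 32.7 to 47.5 and 52.3 to 134, again without overlap.

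Fibroblasts, smooth muscle cells and mesothelial cells are known sources of hyaluronan, and their markers were examined beside HAS1. The summed level of the 5 fibroblast markers in the table, of 7 listed, was 669 to 982 TPM in NRP + SCS 2 h, 763 to 1116 in NRP + HOPE 24 h and 1020 to 1150 in No NRP + HOPE 2 h. It moved in the direction of HAS1 from NRP + SCS 2 h to No NRP + HOPE 2 h, where the sums did not overlap. Of the 5 markers, 4 had a log2 fold change above 0 there, with a median of 0.27. The groups did not overlap for 2 of the 5, against 14.7% of all genes. PDGFRA went the other way, with means of 2.82 TPM without NRP and 3.95 TPM in NRP + SCS 2 h. The part of the fibroblast markers in the HAS1 difference was not tested. The 5 smooth muscle or pericyte markers in the table, of 6 listed, summed to 312 to 461, 225 to 412 and 432 to 489 TPM in the same order of groups, with MYH11 listed at 0 in every heart. ACTA2, the smooth muscle actin of that list, measured 72.0 to 88.1 TPM in No NRP + HOPE 2 h and 15.8 to 55.9 TPM over the hearts with NRP, without overlap. Over the 4 markers tested, however, 2 had a log2 fold change above 0 in No NRP + HOPE 2 h relative to NRP + SCS 2 h, with a median of 0.03, and CNN1 and PDGFRB averaged 58.5 and 20.5 TPM without NRP against 62.2 and 22.7 TPM in NRP + SCS 2 h. The part of this list was not tested either. The 7 mesothelial or epicardial markers in the table, of 11 listed, summed to 18.0 to 67.0, 18.6 to 173 and 13.8 to 31.1 TPM in the same order of groups. KRT8 made up most of the highest sum, with 166 TPM in pig 30. Of the 3 markers tested, 1 had a log2 fold change above 0 in No NRP + HOPE 2 h relative to NRP + SCS 2 h, with a median of -0.60. That marker was WT1, an epicardial transcription factor, at 2.77 to 4.48, 2.91 to 4.07 and 3.67 to 11.5 TPM, whereas the keratin gene KRT18 measured 0.173 to 1.02 TPM in No NRP + HOPE 2 h, below the 1.41 to 1.72 TPM of NRP + SCS 2 h. Their part in the HAS1 difference was not tested. LRRN4, CALB2 and BNC1 of that list stayed below 1 TPM in every heart.

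HAS2 (ENSSSCG00000005992), the synthase required for heart valve formation in development, was present at lower levels and did not separate the groups. It was listed at 5.47, 1.15 and 1.10 TPM in NRP + SCS 2 h, at 1.36, 8.18 and 4.54 TPM in NRP + HOPE 24 h, and at 3.18, 8.04 and 3.78 TPM in No NRP + HOPE 2 h. Every group held hearts within the range of the others. The log2 fold change of NRP + HOPE 24 h over NRP + SCS 2 h was 0.68 ± 0.54 (SE; adjusted p = 0.993, limma with Benjamini-Hochberg adjustment over all genes tested), and that over No NRP + HOPE 2 h was -0.20 ± 0.54 (adjusted p = 0.996, limma). In No NRP + HOPE 2 h relative to NRP + SCS 2 h it was 0.87 ± 0.54, given without a test.

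HAS1 was the more abundant synthase in all 9 hearts. It made up 75.0, 89.5 and 93.0% of the summed TPM of HAS1 and HAS2 in NRP + SCS 2 h, 94.7, 84.2 and 91.5% in NRP + HOPE 24 h, and 96.6, 94.7 and 94.3% in No NRP + HOPE 2 h. The lowest share, in pig 24, came from 5.47 TPM of HAS2 beside 16.4 TPM of HAS1. Together the 2 synthases reached 11.0 to 21.8 TPM in NRP + SCS 2 h, 25.4 to 53.5 TPM in NRP + HOPE 24 h and 65.8 to 153 TPM in No NRP + HOPE 2 h.

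PTX3 (ENSSSCG00000011727), a soluble pattern recognition protein released by endothelial cells, macrophages and fibroblasts and stored in neutrophils, followed a different pattern. It measured 97.9, 122 and 35.4 TPM in pigs 24, 25 and 29 of NRP + SCS 2 h and 71.9, 104 and 125 TPM in pigs 27, 28 and 30 of NRP + HOPE 24 h. In pigs 31, 33 and 34 of No NRP + HOPE 2 h it measured 10.2, 22.9 and 10.5 TPM. The NRP groups overlapped each other, and every heart without NRP lay below every heart with it. Of the genes tested, 149 (1.26%) lay below both NRP groups in every heart of No NRP + HOPE 2 h, and 128 (1.09%) lay above.

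The mean PTX3 level was 5.83-fold lower in No NRP + HOPE 2 h (14.6 ± 7.25 TPM, SD, n = 3) than in NRP + SCS 2 h (85.0 ± 44.5 TPM), and 6.89-fold lower than in NRP + HOPE 24 h (100.4 ± 26.7 TPM). On the log2(TPM + 1) scale the difference from NRP + SCS 2 h was -2.38 ± 0.44 (SE), with 4 genes lower, and NRP + HOPE 24 h exceeded No NRP + HOPE 2 h by 2.76 ± 0.44, with 6 genes higher. Between the NRP groups the log2 fold change was 0.38 ± 0.44 with NRP + HOPE 24 h over NRP + SCS 2 h, smaller than its standard error. It turned to -0.16 without pig 29, the NRP + SCS 2 h heart with the lowest PTX3. Each comparison with NRP + HOPE 24 h shares 3 hearts with the one that picked PTX3, so these values are no support for the pattern.

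Markers of cells that release or store the PTX3 protein were read beside the PTX3 levels. Of 6 neutrophil markers, 4 were in the table. CSF3R and MPO were listed at 0 in every heart, and the summed level of S100A8 and S100A9 was 2.02 to 13.2 TPM in NRP + SCS 2 h, 0.357 to 3.89 in NRP + HOPE 24 h and 0 to 0.343 in No NRP + HOPE 2 h. This sum was lowest in the group in which PTX3 was lowest, and its part in the PTX3 difference was not tested. The fibroblast markers summed to 669 to 982, 763 to 1116 and 1020 to 1150 TPM in the same order of groups. Their sum was higher in No NRP + HOPE 2 h than in NRP + SCS 2 h, opposite to PTX3. Its part was not tested. The 4 endothelial markers summed to 337 to 370, 173 to 375 and 160 to 348 TPM in the same order of groups, and the 4 macrophage markers to 66.3 to 175, 54.9 to 129 and 96.4 to 208 TPM. Both sums overlapped between No NRP + HOPE 2 h and each NRP group. Of the 4 endothelial markers, 1 had a log2 fold change above 0 in No NRP + HOPE 2 h relative to NRP + SCS 2 h, with a median of -0.38, and their part in the PTX3 difference was not tested. C1QA was the largest contributor to the macrophage sum on average, and 1 of the 4 macrophage markers had a log2 fold change above 0 in No NRP + HOPE 2 h relative to NRP + SCS 2 h, with a median of -0.31. MRC1, a scavenger receptor of resident macrophages, measured at most 6.30 TPM in No NRP + HOPE 2 h, below all NRP + SCS 2 h hearts at 6.79 to 8.08 TPM but overlapping with NRP + HOPE 24 h, and its part in the PTX3 difference was not tested.

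**Figure D2:**
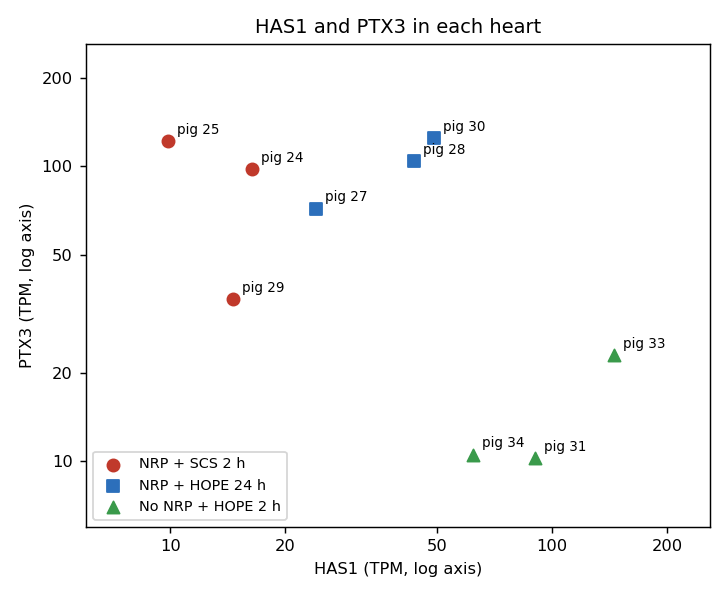
HAS1 level (horizontal) against PTX3 level (vertical), both in TPM on log axes, with a point for each of the 9 hearts, marked by group and labelled by pig. The No NRP + HOPE 2 h hearts occupy the lower right, with 62.0 to 145 TPM of HAS1 and 10.2 to 22.9 TPM of PTX3. The NRP groups overlap in PTX3, at 35.4 to 122 TPM in NRP + SCS 2 h and 71.9 to 125 TPM in NRP + HOPE 24 h, while differing in HAS1.

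Set against each other within a heart, where scaling of the library cancels, HAS1 and PTX3 exchanged places. There were 5.99, 12.3 and 2.43 PTX3 transcripts per HAS1 transcript in NRP + SCS 2 h and 2.98, 2.40 and 2.55 in NRP + HOPE 24 h. In No NRP + HOPE 2 h the ratio was 0.113, 0.158 and 0.170, which is 8.82, 6.32 and 5.88 HAS1 transcripts per PTX3 transcript. PTX3 was therefore the more abundant of the pair in all 6 hearts with NRP and HAS1 in all 3 hearts without it. The NRP + HOPE 24 h ratios lay close together, although HAS1 and PTX3 each varied within that group.

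TNFAIP6 (ENSSSCG00000023716), whose protein TSG-6 transfers heavy chains onto hyaluronan, was near the lower end of the table in every group. It did not pass the minimum of 1 TPM in 3 hearts and was not tested.

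CD44 (ENSSSCG00000013297), the main cell surface receptor for hyaluronan, was carried by all hearts at 20.8 to 76.3 TPM. It measured 48.0, 42.1 and 35.0 TPM in NRP + SCS 2 h, 24.8, 59.2 and 76.3 TPM in NRP + HOPE 24 h, and 20.8, 45.4 and 22.2 TPM in No NRP + HOPE 2 h. The NRP + HOPE 24 h hearts spread the most and included both a heart below all of NRP + SCS 2 h and the highest heart of the series. The log2 fold change of CD44 in NRP + HOPE 24 h over No NRP + HOPE 2 h was 0.78 ± 0.41 (unadjusted p = 0.0765, adjusted p = 0.857, limma), and it ran from 0.46 to 1.25 when a heart was left out. NRP + HOPE 24 h over NRP + SCS 2 h gave 0.22 ± 0.41 (adjusted p = 0.993, limma), which turned to -0.10 without pig 30, and No NRP + HOPE 2 h relative to NRP + SCS 2 h gave -0.56 ± 0.41, without a test.

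HMMR (ENSSSCG00000017022), a hyaluronan-binding protein that also acts at the mitotic spindle of dividing cells, was low throughout. It was listed at 0.421, 0.391 and 1.88 TPM in NRP + SCS 2 h, at 0.506, 0.391 and 0.453 TPM in NRP + HOPE 24 h, and at 0.621, 1.72 and 1.23 TPM in No NRP + HOPE 2 h. It entered the test through only 3 hearts at 1 TPM or more, none of them in NRP + HOPE 24 h, the group with the lowest mean. The NRP + HOPE 24 h hearts all lay below those of No NRP + HOPE 2 h, as did those of 4.51% of all genes, with a log2 fold change of -0.56 ± 0.37 (adjusted p = 0.931, limma). The summed level of the 4 dividing cell markers in the table, 2.40 to 7.48 TPM and 1.61 to 15.3 TPM in these groups, overlapped.

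The hyaluronidases were represented by HYAL2 (ENSSSCG00000011405), a membrane-anchored enzyme that makes the initial cuts in long chains, and HYAL1 (ENSSSCG00000011404), a lysosomal enzyme that degrades the fragments. HYAL2 measured 67.0, 37.4 and 62.8 TPM in NRP + SCS 2 h, 25.9, 29.5 and 73.7 TPM in NRP + HOPE 24 h, and 41.8, 50.9 and 73.6 TPM in No NRP + HOPE 2 h. HYAL1 measured 2.13, 3.02 and 1.65 TPM, then 0.985, 0.499 and 1.83 TPM, then 1.34, 1.10 and 3.80 TPM in the same order. Both genes overlapped in every pair of groups, and HYAL1 contributed 1.66 to 7.46% of their summed TPM.

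In NRP + HOPE 24 h over NRP + SCS 2 h the log2 fold change of HYAL2 was -0.48 ± 0.40 and that of HYAL1 was -0.66 ± 0.39 (adjusted p = 0.993 for each, limma). Over No NRP + HOPE 2 h, NRP + HOPE 24 h gave -0.48 ± 0.40 for HYAL2 (adjusted p = 0.956, limma) and -0.49 ± 0.39 for HYAL1 (adjusted p = 0.954, limma). Neither gene passed the threshold, and leaving out a heart moved the latter values between -0.94 and -0.20 for HYAL2 and between -0.73 and -0.12 for HYAL1. With HYAL2 itself overlapping and HAS1 making up most of the denominator, the ratio of HYAL2 to the summed synthases was 3.07 to 4.01 HYAL2 transcripts per synthase transcript in NRP + SCS 2 h, 0.571 to 1.38 in NRP + HOPE 24 h and 0.332 to 1.12 in No NRP + HOPE 2 h. These values restate the HAS1 difference.

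VCAN (ENSSSCG00000014136), which encodes the large hyaluronan-binding proteoglycan versican, was the steadiest of the genes, at 1.92 to 3.13 TPM over the 9 hearts. Its log2 fold changes were 0.05, 0.04 and 0.01 in NRP + HOPE 24 h over NRP + SCS 2 h, No NRP + HOPE 2 h relative to NRP + SCS 2 h and NRP + HOPE 24 h over No NRP + HOPE 2 h, each with a standard error of 0.30. The tests of the first and the third gave adjusted p = 0.993 and adjusted p = 0.999 (limma).

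**Figure D3:**
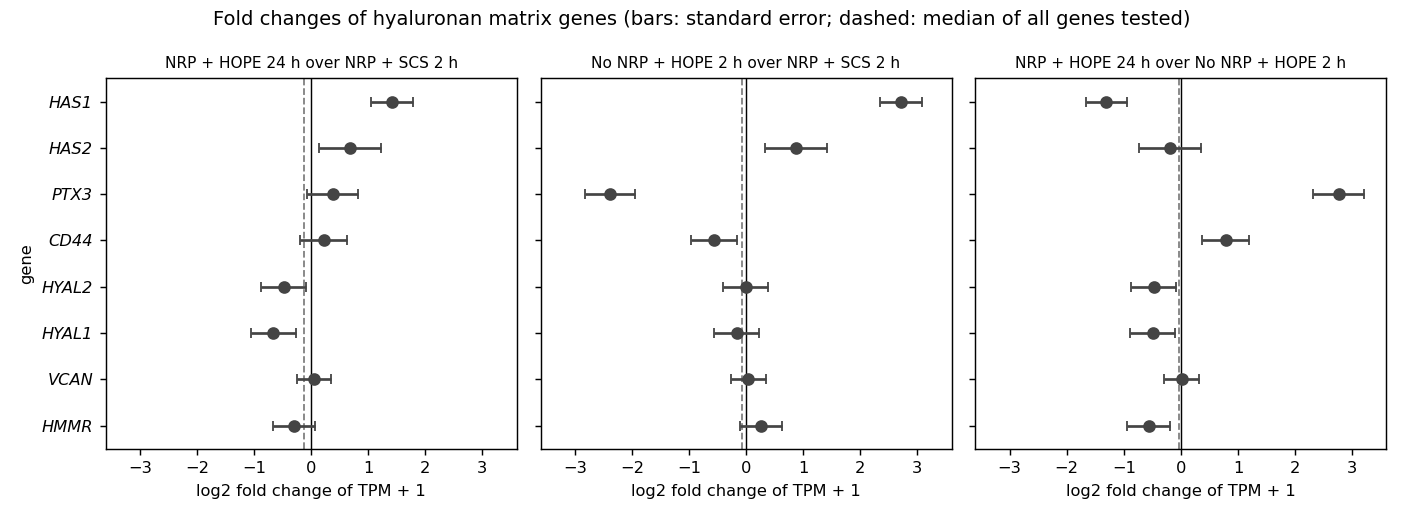
Log2 fold changes on the log2(TPM + 1) scale (horizontal) of 8 hyaluronan matrix genes (vertical) in the 3 comparisons, with bars for the standard error, a solid line at 0 and a dashed line at the median of all genes tested. HAS1 lies at 1.42, 2.72 and -1.30 and PTX3 at 0.38, -2.38 and 2.76, while the other genes stay between -0.66 and 0.87.

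Of the 9 genes with a row in the table, 8 passed the filter on low values. Besides HAS1 and PTX3, 6 were tested, and 0 of the 6 were called in NRP + HOPE 24 h over NRP + SCS 2 h or in NRP + HOPE 24 h over No NRP + HOPE 2 h (limma; the call required adjusted p below 0.05 together with a log2 fold change beyond 1 in either direction). Nor did any of the 6 have an unadjusted p under 0.05 in the main fit. Under the alternative settings, 0 to 2 of the tested members did in each comparison. Over all 11782 genes tested, 3 (0.0255%) and 6 (0.0509%) were called in these comparisons, and 585 (4.97%) and 708 (6.01%) had an unadjusted p under 0.05. With so few calls anywhere, the absence of calls among 6 genes does not show that their levels were alike, and the standard errors above of 0.30 to 0.54 give the precision.

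Across the 9 hearts, the members' log2 levels related to each other to different degrees, given here as Pearson correlations that describe hearts of 3 differing groups. PTX3 and CD44 had r = 0.74, HAS1 and HAS2 r = 0.65, and HYAL1 and HYAL2, whose genes lie next to each other in the pig RefSeq annotation, r = 0.61. HAS1 and PTX3 had r = -0.61 and PTX3 and HMMR r = -0.62. HAS1 and PTX3 were picked for differences between the same groups, so their r follows in part from that choice. Other pairs lay between -0.34 and 0.57. All hearts share the TPM scaling of their own library, which enters both genes of a pair.

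Among 7944 tested genes with a symbol, those with a pattern much like HAS1 included DYNLL1 (r = 0.94), ACBD4 (r = 0.92), CTSV (r = 0.91) and GPC2 (r = 0.89). DYNLL1, a light chain of the dynein motor, averaged 45.1 TPM in NRP + SCS 2 h, 67.4 in NRP + HOPE 24 h and 90.4 in No NRP + HOPE 2 h. CTSV, a lysosomal cysteine protease, averaged 199, 229 and 280.4 TPM in that order. In No NRP + HOPE 2 h relative to NRP + SCS 2 h the log2 fold changes of these 4 genes ran from 0.48 (CTSV) to 0.98 (DYNLL1), below the 2.72 of HAS1. GPC2 averaged 1.76 against 0.535 TPM in these groups and ACBD4 2.79 against 1.10 TPM. At such levels the 1 TPM added before taking logs makes the log2 fold change smaller. HAS2 ranked lower, with 301 of all 11782 genes tested, with or without a symbol, closer to HAS1.

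Among the same 7944 genes with a symbol, PTX3 was followed most closely by KLHL29 (r = 0.97), SFMBT1 (r = 0.96), SELP (r = 0.96), SLC38A1 (r = 0.94) and ACSL4 (r = 0.94). SELP encodes P-selectin, which captures rolling leukocytes on activated endothelium, and averaged 24.7 TPM in NRP + SCS 2 h, 27.3 in NRP + HOPE 24 h and 4.76 in No NRP + HOPE 2 h. Its log2 fold change in No NRP + HOPE 2 h relative to NRP + SCS 2 h was -2.37, beside -2.38 for PTX3. ACSL4, an enzyme that activates arachidonic acid, averaged 65.6, 68.1 and 31.1 TPM. CD44 was closer to PTX3 than the other hyaluronan genes, with 355 of all genes tested closer still.

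The wider pathway was read from 7 lists of 61 gene symbols, among them CEMIP2 and its former symbol TMEM2. Of these symbols, 50 were in the table and 34 passed the filter. None was called in any of the 3 comparisons: 0 of 34 each time, with lowest adjusted p-values of 0.419, 0.472 and 0.300 (limma) in NRP + HOPE 24 h over NRP + SCS 2 h, No NRP + HOPE 2 h relative to NRP + SCS 2 h and NRP + HOPE 24 h over No NRP + HOPE 2 h. In that order, 4 (11.8%), 1 (2.94%) and 6 (17.6%) of the 34 had an unadjusted p under 0.05, against 4.97%, 7.22% and 6.01% of all genes tested. These counts depended on the setting. Over all settings they ran from 2 to 6, from 1 to 7 and from 3 to 12, with the number of genes tested also changing. The groups did not overlap for 5 (14.7%), 1 (2.94%) and 5 (14.7%) of the 34, against 9.82%, 14.7% and 7.48% of all genes. Called genes made up 0.0509% of all genes in No NRP + HOPE 2 h relative to NRP + SCS 2 h. The median log2 fold changes of the 34 were -0.02, 0.05 and 0.02, and those of all genes -0.12, -0.07 and -0.03.

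Among inducers of HAS and PTX3 transcription, HBEGF and IL1A were highest in NRP + HOPE 24 h. HBEGF, a growth factor of the EGF family, measured 53.3, 161 and 141 TPM in the NRP + HOPE 24 h hearts, against 33.0 to 47.0 TPM in NRP + SCS 2 h and 31.0 to 47.9 TPM in No NRP + HOPE 2 h, with no overlap. Its log2 fold change was 1.43 ± 0.38 over NRP + SCS 2 h (unadjusted p = 0.00224, adjusted p = 0.419, limma) and 1.52 ± 0.38 over No NRP + HOPE 2 h (unadjusted p = 0.0014, adjusted p = 0.300, limma). With limma array weights, by which the more variable hearts count less, the adjusted p of the first was 0.0487, the only call among the 34 genes under any setting tried.

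IL1A, an alarmin cytokine, measured 4.65, 13.0 and 9.35 TPM in NRP + HOPE 24 h, 1.44 to 3.22 TPM in NRP + SCS 2 h and 1.06 to 4.63 TPM in No NRP + HOPE 2 h. The lowest NRP + HOPE 24 h heart lay just above the highest heart without NRP. Its log2 fold changes were 1.58 ± 0.45 (adjusted p = 0.479, limma) and 1.65 ± 0.45 (adjusted p = 0.375, limma). TGFB3, a cytokine of the same family as TGFB1, averaged 22.4 TPM in NRP + SCS 2 h, 24.5 in NRP + HOPE 24 h and 30.9 in No NRP + HOPE 2 h. It overlapped in every pair, and the last mean rested on pig 33, with 48.2 TPM against 23.8 and 20.7 TPM. TNF, an inflammatory cytokine, averaged 1.73, 1.31 and 1.92 TPM, and its NRP + HOPE 24 h hearts lay below those of No NRP + HOPE 2 h (log2 fold change -0.35, adjusted p = 0.971, limma). TGFB1, a profibrotic cytokine, averaged 125 TPM in NRP + SCS 2 h, 123 in NRP + HOPE 24 h and 84.3 in No NRP + HOPE 2 h, overlapping in every pair.

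Of the hyaluronan receptors, TLR4, which also responds to endotoxin and is reported to sense hyaluronan fragments, measured 6.39, 4.73 and 9.33 TPM in NRP + HOPE 24 h. It ranged from 2.86 to 4.18 TPM in NRP + SCS 2 h and from 2.02 to 2.89 TPM in No NRP + HOPE 2 h, so that the NRP + HOPE 24 h hearts lay above all others. The log2 fold change was 0.72 ± 0.32 over NRP + SCS 2 h (unadjusted p = 0.0414, adjusted p = 0.972, limma) and 1.13 ± 0.32 over No NRP + HOPE 2 h (unadjusted p = 0.00352, adjusted p = 0.403, limma). LYVE1, the lymphatic receptor for hyaluronan, averaged 5.36 TPM in NRP + HOPE 24 h and 9.17 TPM in No NRP + HOPE 2 h (log2 fold change -0.68 ± 0.33, adjusted p = 0.846, limma). LAYN, which encodes layilin, a membrane receptor, averaged 1.34 TPM in NRP + SCS 2 h and 2.68 TPM in No NRP + HOPE 2 h, with overlap.

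None of the 7 genes for sugar precursors of hyaluronan was called. UAP1, which makes UDP-N-acetylglucosamine, averaged 74.0 TPM in NRP + SCS 2 h, 48.6 in NRP + HOPE 24 h and 74.0 in No NRP + HOPE 2 h. The NRP + HOPE 24 h hearts, at 36.4 to 54.8 TPM, lay below all others, with log2 fold changes of -0.60 ± 0.29 over each of the other groups (adjusted p = 0.993 and adjusted p = 0.846, limma). GNPNAT1, which acts earlier in the same route, averaged 26.7, 40.6 and 42.3 TPM, the group order of HAS1, and overlapped in every pair. UGDH, which makes the UDP-glucuronic acid precursor, averaged 23.3, 21.3 and 27.1 TPM, likewise with overlap.

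Breakdown genes were available for 4 of 9 listed symbols after filtering. All 4 had a log2 fold change above 0 in No NRP + HOPE 2 h relative to NRP + SCS 2 h, with a median of 0.46, and none was above 0 in NRP + HOPE 24 h over No NRP + HOPE 2 h, but each overlapped between groups. These comparisons share the No NRP + HOPE 2 h hearts. CEMIP2, a cell surface hyaluronidase, averaged 38.0 TPM in NRP + SCS 2 h, 47.4 in NRP + HOPE 24 h and 55.8 in No NRP + HOPE 2 h. GUSB, a lysosomal enzyme that removes single sugars from the fragments, averaged 5.67, 6.43 and 9.04 TPM in the same order.

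Among hyaluronan-binding proteins, HABP2, a plasma serine protease, was the most abundant of those tested. It measured 62.1, 89.9 and 65.6 TPM in NRP + HOPE 24 h, against 99.1 to 192 TPM in NRP + SCS 2 h and 81.4 to 138 TPM in No NRP + HOPE 2 h. The NRP + HOPE 24 h hearts lay below all of NRP + SCS 2 h, with a log2 fold change of -0.93 ± 0.31 (unadjusted p = 0.0107, adjusted p = 0.788, limma). The heavy chain gene ITIH3, whose product can be transferred to hyaluronan, averaged 4.52, 2.51 and 6.16 TPM in NRP + SCS 2 h, NRP + HOPE 24 h and No NRP + HOPE 2 h. Its relative ITIH4 averaged 18.7, 10.4 and 19.3 TPM, and both overlapped in every pair. The NRP + SCS 2 h means of both rested on pig 24, with 8.34 TPM of ITIH3 against 2.86 and 2.36 TPM in the other hearts of the group, and 34.5 TPM of ITIH4 against 12.6 and 8.92 TPM. Those of No NRP + HOPE 2 h rested on pig 33 in the same way, with 9.89 TPM of ITIH3 against 3.63 and 4.95 TPM and 30.6 TPM of ITIH4 against 14.7 and 12.5 TPM. NPTX2, a neuronal pentraxin and the only other pentraxin that passed the filter, overlapped in every pair of groups. Its log2 fold change in NRP + HOPE 24 h over NRP + SCS 2 h was -0.63, and -0.04 without pig 24, in which it measured 6.53 TPM against 0.840 and 1.57 TPM in the other NRP + SCS 2 h hearts.

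The proteases that cleave versican covered a wide range of levels, from ADAMTS5, which averaged 0.151, 0.705 and 0.551 TPM in NRP + SCS 2 h, NRP + HOPE 24 h and No NRP + HOPE 2 h, to ADAMTS4. ADAMTS4 averaged 165 TPM in NRP + SCS 2 h, 231 in NRP + HOPE 24 h and 187 in No NRP + HOPE 2 h, with overlap in every pair. ADAMTS9 measured 58.3, 50.8 and 35.6 TPM in NRP + SCS 2 h, 27.6, 58.2 and 53.0 TPM in NRP + HOPE 24 h, and 16.8, 32.3 and 14.8 TPM in No NRP + HOPE 2 h. As for PTX3, the hearts without NRP were lowest on average, and they lay below all NRP + SCS 2 h hearts but overlapped with NRP + HOPE 24 h. The log2 fold change was -1.20 ± 0.37 in No NRP + HOPE 2 h relative to NRP + SCS 2 h (unadjusted p = 0.00614, adjusted p = 0.472, limma) and 1.10 ± 0.37 in NRP + HOPE 24 h over No NRP + HOPE 2 h (unadjusted p = 0.0104, adjusted p = 0.573, limma).

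**Figure D4:**
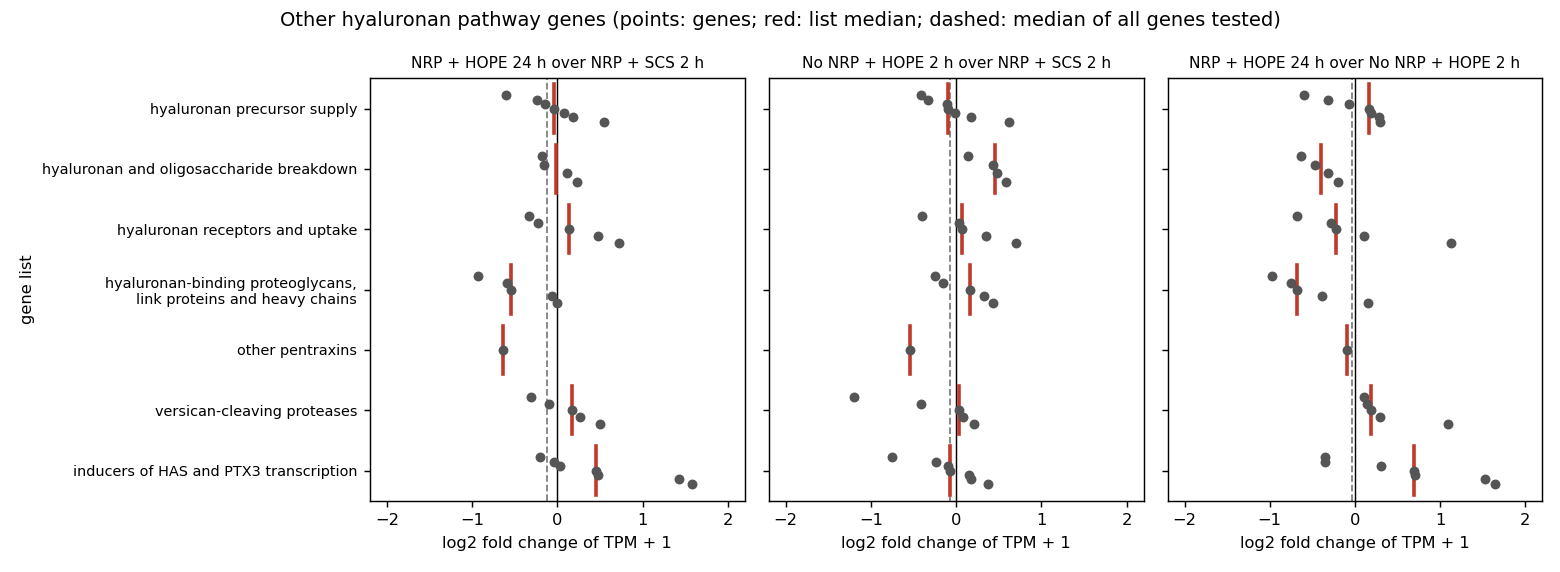
Log2 fold changes on the log2(TPM + 1) scale (horizontal) of 34 further hyaluronan pathway genes in 7 lists (vertical) in the 3 comparisons; each point is a gene, the red line the median of its list, the dashed line the median of all genes tested and the solid line 0. The points at 1.43 and 1.58 in the first comparison and at 1.52 and 1.65 in the third are HBEGF and IL1A, and the lowest point in the second, at -1.20, is ADAMTS9.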

How the data were processed

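RNA from apex biopsies was poly(A)-selected and sequenced as paired reads. Per the labels, the authors used bcl2fastq 2.17, Trimmomatic 0.36, STAR 2.5.2b and featureCounts of Subread 1.5.2, and deposited TPM per gene with totals of 1000000. The genome build and the lengths behind the TPM are not given in the sources used here, nor is the depth. Another 9 columns that match no labelled heart were not used.

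The 9 hearts were grouped by label, 3 pigs per group. Genes reaching 1 TPM in 3 or more hearts were fitted as log2(TPM + 1) with limma 3.58.1 (R 4.3.3; 1 mean per group, trended variance, two-sided, Benjamini-Hochberg over 11782 genes) and called where adjusted p was below 0.05 and the log2 fold change beyond 1 in either direction. The code was tested on simulated data. The study used DESeq2 on counts, which TPM do not allow.

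The members and lists were chosen with earlier results of these data known. Text names all members, the genes of each pathway list with the 3 largest changes in a comparison, and the 5 genes most correlated with HAS1 and with PTX3. TNF and ADAMTS5 were named after their values were seen. Some genes that this rule picks are not reported here. Listed genes were matched by symbol or, for 6 of them, by Ensembl identifier. Alternatives changed pseudocount, filter, scaling, variance model, weights and hearts.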

Additional observations from a re-analysis of the deposited data

How the results depend on the processing

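Leaving out each heart in turn, HAS1 in No NRP + HOPE 2 h relative to NRP + SCS 2 h kept a log2 fold change of 2.40 to 3.01 and PTX3 of -2.92 to -2.04. Over all alternatives HAS1 ran from 2.40 to 3.12. In NRP + HOPE 24 h over NRP + SCS 2 h, leaving out a heart moved PTX3 between -0.16 and 0.72, CD44 between -0.10 and 0.69 and VCAN between -0.050 and 0.21. In NRP + HOPE 24 h over No NRP + HOPE 2 h it moved HAS2 between -0.65 and 0.34 and VCAN between -0.074 and 0.18. In No NRP + HOPE 2 h relative to NRP + SCS 2 h it moved HYAL1 between -0.54 and 0.06, HYAL2 between -0.26 and 0.18 and VCAN between -0.06 and 0.13. These changed sign, and HAS1 did not in any comparison. Without sign change, HAS2 in NRP + HOPE 24 h over NRP + SCS 2 h ran from 0.23 to 1.21 and HYAL2 from -0.94 to -0.21. Likewise, in No NRP + HOPE 2 h relative to NRP + SCS 2 h, HAS2 ran from 0.54 to 1.41 and CD44 from -0.91 to -0.37. The tested members gave 0 calls in the comparisons with NRP + HOPE 24 h under every alternative, and the pathway genes gave 1 call, HBEGF, with array weights in NRP + HOPE 24 h over NRP + SCS 2 h; the cause was not tested. Median-of-ratios scaling shifted the median of all genes in that comparison by 0.12. HAS2, HYAL1, HMMR and VCAN had no value under a mean of at least 5 TPM. HMMR also had none in some fits that leave out a heart or use only the 6 hearts compared. No paired analysis was possible because the groups share no pig numbers. With 3 hearts per group and unknown depth, small differences and low genes such as HMMR and TNFAIP6 are poorly resolved.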
